A study of Mus musculus with 8 samples.

Results

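The 29 genes described here make cholesterol, sense it, move it within the cell and export it. They were taken by symbol for these roles: 19 synthesis enzymes, 4 regulators, 3 carriers, and 3 genes of export with its nuclear receptor. All 29 were among the 49585 genes counted by RNA sequencing of 3T3-L1 cells, a clonal line of mouse fibroblast-like preadipocytes. All 29 also passed the low-count filter, which left 15255 genes for testing. The 8 libraries formed 4 groups of 2, all taken on day 7. The 3D induced cultures were hanging-drop spheroids seeded with about 20000 cells in 28 µL. Troglitazone (10 µM), a PPARγ agonist, and insulin (1 µg/ml) were given on each of 7 days. Dexamethasone (250 nM), a glucocorticoid, and the thyroid hormone triiodothyronine (10 nM) were added for the opening 2 days. The 3D uninduced cultures were spheroids without these 4 agents. The 2D induced cultures grew flat on dishes with the same 4 agents, and the 2D uninduced cultures grew flat without them. All 4 groups came from preadipocytes grown in high-glucose medium with calf serum and methylcellulose. Per the labels, medium was changed daily in flat cultures, whereas only part of it was exchanged each day in spheroids. The labels call the samples independently prepared but do not say that they came from separate cultures, so p-values measure only how far these samples spread, which may be technical.

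Cholesterol is built from acetyl-CoA through mevalonate and isoprenoid units to squalene, which is closed into lanosterol and trimmed to cholesterol. The transcription factor SREBP-2, encoded by Srebf2, switches these enzymes on. It is carried by Scap from the endoplasmic reticulum to be cleaved when membrane cholesterol is low, and Insig proteins hold Scap back when sterols are plentiful. When oxysterols accumulate, liver X receptors switch on the transporters Abca1 and Abcg1, which move cholesterol out of the cell. Fat cells are a large store of cholesterol in the body, held largely in free form around the lipid droplet.

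Promoters are shown for the 5 members that were called lower in spheroids than in flat cultures in both states of induction: Hmgcs1, Insig1, Cyp51, Msmo1 and Idi1. Each run holds 250 bases before and 50 bases after a RefSeq transcription start (GRCm38.p6), 5′ to 3′ on the strand of the gene. They lie at chr13:119690101-119690400 on the plus strand, chr5:28071162-28071461 on the plus strand, chr5:4104648-4104947 on the minus strand, chr8:64733529-64733828 on the minus strand and chr13:8885356-8885655 on the plus strand, in that order. Capitals mark the letters CCAAT, the box bound by NF-Y, and the sterol element core TCACNCCAC with at most 1 mismatch, both searched on both strands. In Msmo1 a CCAAT and a core match overlap. In Idi1 only CCAAT is marked, on the opposite strand, since this window holds no core match.
Hmgcs1: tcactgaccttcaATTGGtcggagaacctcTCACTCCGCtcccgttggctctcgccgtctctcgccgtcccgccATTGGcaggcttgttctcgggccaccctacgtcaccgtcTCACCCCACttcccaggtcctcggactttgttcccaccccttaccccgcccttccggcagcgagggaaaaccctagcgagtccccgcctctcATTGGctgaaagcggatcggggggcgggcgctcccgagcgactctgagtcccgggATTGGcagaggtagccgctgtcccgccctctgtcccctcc
Insig1: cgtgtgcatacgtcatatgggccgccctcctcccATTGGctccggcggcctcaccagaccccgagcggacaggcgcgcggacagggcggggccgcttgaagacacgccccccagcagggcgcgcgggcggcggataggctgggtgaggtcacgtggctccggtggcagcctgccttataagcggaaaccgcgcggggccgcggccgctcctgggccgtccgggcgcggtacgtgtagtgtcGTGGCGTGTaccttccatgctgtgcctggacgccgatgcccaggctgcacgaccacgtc
Cyp51: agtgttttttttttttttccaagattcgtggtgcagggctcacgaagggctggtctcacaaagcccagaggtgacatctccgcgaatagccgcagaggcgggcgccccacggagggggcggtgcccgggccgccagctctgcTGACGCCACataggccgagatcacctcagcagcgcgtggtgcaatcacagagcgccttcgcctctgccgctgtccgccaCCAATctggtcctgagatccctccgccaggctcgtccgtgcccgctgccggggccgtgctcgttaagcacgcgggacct
Msmo1: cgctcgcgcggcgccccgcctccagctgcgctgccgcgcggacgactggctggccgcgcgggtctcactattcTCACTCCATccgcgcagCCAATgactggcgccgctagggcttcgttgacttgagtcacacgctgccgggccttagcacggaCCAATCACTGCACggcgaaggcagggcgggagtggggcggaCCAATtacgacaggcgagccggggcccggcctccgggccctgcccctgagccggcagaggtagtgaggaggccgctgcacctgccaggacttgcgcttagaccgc
Idi1: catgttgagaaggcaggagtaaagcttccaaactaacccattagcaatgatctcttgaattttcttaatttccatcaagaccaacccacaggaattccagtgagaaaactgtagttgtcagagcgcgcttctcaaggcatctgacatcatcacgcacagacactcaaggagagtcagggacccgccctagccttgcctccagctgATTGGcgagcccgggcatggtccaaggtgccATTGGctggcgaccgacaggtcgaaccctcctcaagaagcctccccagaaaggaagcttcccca

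The promoter table matched 23 of the 29 members; Fdps, Fdft1, Sqle, Stard4, Npc1 and Abcg1 had no entry. Of the 23, 19 held at least 1 CCAAT, a letter string found in 37.4% of all 32851 promoters in the table and in at least 1 promoter of 41.1% of its 27025 genes. Among the 16 synthesis enzymes matched, 15 held it, Acat2 being the exception. The exact core TCACNCCAC was present in 1 member, Hmgcs1, against 1.24% of all promoters and 1.44% of genes. With 1 mismatch allowed, a search added after the exact one, 10 of 23 members held it, against 24.2% of promoters and 26.7% of genes. The repeat AGGTCA, then 4 bases of any kind, then AGGTCA again, the form bound by liver X receptors, was searched on both strands with at most 2 mismatches. It was found in 1 member, Dhcr7, against 3.02% of promoters and 3.47% of genes. It was not among the letters of the Abca1 promoter window. These are letter matches with no measurement of binding.

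The libraries held 11839374 to 21169390 counts. Levels are given in CPM, with library sizes scaled by TMM, and 1 CPM stood for 11.2 to 20.1 counts. Replicates were close in flat cultures and less so in 3D induced spheroids, where 2159 of 15255 genes lay at least 2-fold apart, against 380 to 561 in the other groups. Of the 29 members, 3 lay that far apart in 3D induced spheroids (Fdps, Abca1 and Tm7sf2). Mitochondrially encoded transcripts held 1.57 to 2.25% of counts in the 4 spheroid libraries and 0.303 to 0.343% in the 4 flat ones. Gm26917 and Gm42418, noncoding genes that overlap ribosomal RNA, held 1.13% in 3D induced replicate 2 and 0.106 to 0.279% in the other 7 libraries. The labels name preadipocytes for every sample. The fat cell hormone Adipoq was at 7.11 and 21.1 CPM in induced spheroids and 242 and 230 CPM in induced flat cultures, and at 0 to 0.0754 CPM in all uninduced libraries. The preadipocyte marker Dlk1 was at 265 to 754 CPM across the 4 spheroid libraries, at 1660 and 1640 CPM in induced flat cultures and at 4410 and 4400 CPM in uninduced flat cultures. All 7 genes of the adipocyte list were tested, and they summed to 3570 and 3920 CPM in induced and 1070 and 1430 CPM in uninduced spheroids, against 10100 and 9560 CPM in induced and 1670 and 1710 CPM in uninduced flat cultures. The 7 preadipocyte and fibroblast genes, all tested, summed to 6510 and 2310 CPM in induced and 5190 and 6050 CPM in uninduced spheroids, against 8340 and 8090 CPM in induced and 14600 and 14700 CPM in uninduced flat cultures. Most of this sum was Col1a1 and Dlk1. Pdgfrb, of the same list, was instead higher in spheroids than in flat cultures, at 422 and 294 against 277 and 267 CPM with induction. Without induction Pdgfrb was at 412 and 465 against 360 and 372 CPM, and Pdgfra overlapped (833 and 703 against 814 and 861 CPM). The adipocyte and the preadipocyte sums were both lower in spheroid than in flat libraries within each state of induction. They also differed between induced and uninduced flat libraries, without overlap. In uninduced cells the adipocyte sum was mostly Lpl (987 and 1340 CPM in spheroids, 1600 and 1640 CPM in flat cultures). Fabp4 (38.0 and 33.2 against 24.7 and 20.6 CPM) and Plin1 (5.82 and 8.07 against 0.0498 and 0 CPM) were instead higher in those spheroids. Cebpa was lower there (13.2 and 12.1 against 15.1 and 16.7 CPM) and Pparg overlapped. In spheroids the adipocyte sums also stood apart by induction, whereas the preadipocyte sums overlapped. The part of these lists in the sterol results was not tested. Endothelial and epithelial markers summed to at most 1.93 and 3.84 CPM in any library. These are bulk libraries, so fewer cells of a type and less RNA per cell cannot be told apart.

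Per kilobase of merged exons, the lysosomal sterol carrier Npc2 had the highest level among the members, a mean of 135 CPM per kb over the 4 groups. Acat2 followed at 32.9, Hmgcs1 at 23.7, Insig1 at 19.8 and Abca1 at 17.6 CPM per kb. The lowest were Tm7sf2 at 1.72, Abcg1 at 0.594 and Fdps at 0.178 CPM per kb. The value of Fdps, farnesyl diphosphate synthase, is not a usable level. It had 90 counts in all 8 libraries together, and in the annotation it shares 1124 exon bases with the overlapping gene Gm43738 on the same strand and closely matches several pseudogenes. Of these, Gm3571 (98.9% identical over 1062 bases) had 331 counts. Acat2 is likewise uncertain, because its neighbour Acat3 is 97.7% identical over 1477 bases and was counted at 30.1 to 48.8 CPM. Tm7sf2 shares 532 exon bases with Vps51 on the same strand. Exons of Fdft1 and the much more abundant Ctsb overlap by 774 bases on opposite strands, and smaller overlaps of this kind touch Ggps1, Cyp51, Lss, Hmgcs1, Idi1, Scap and Npc1. The strand setting of the counting is not given in the sources used here, so reads in these stretches cannot be assigned with certainty.

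**Figure D1:**
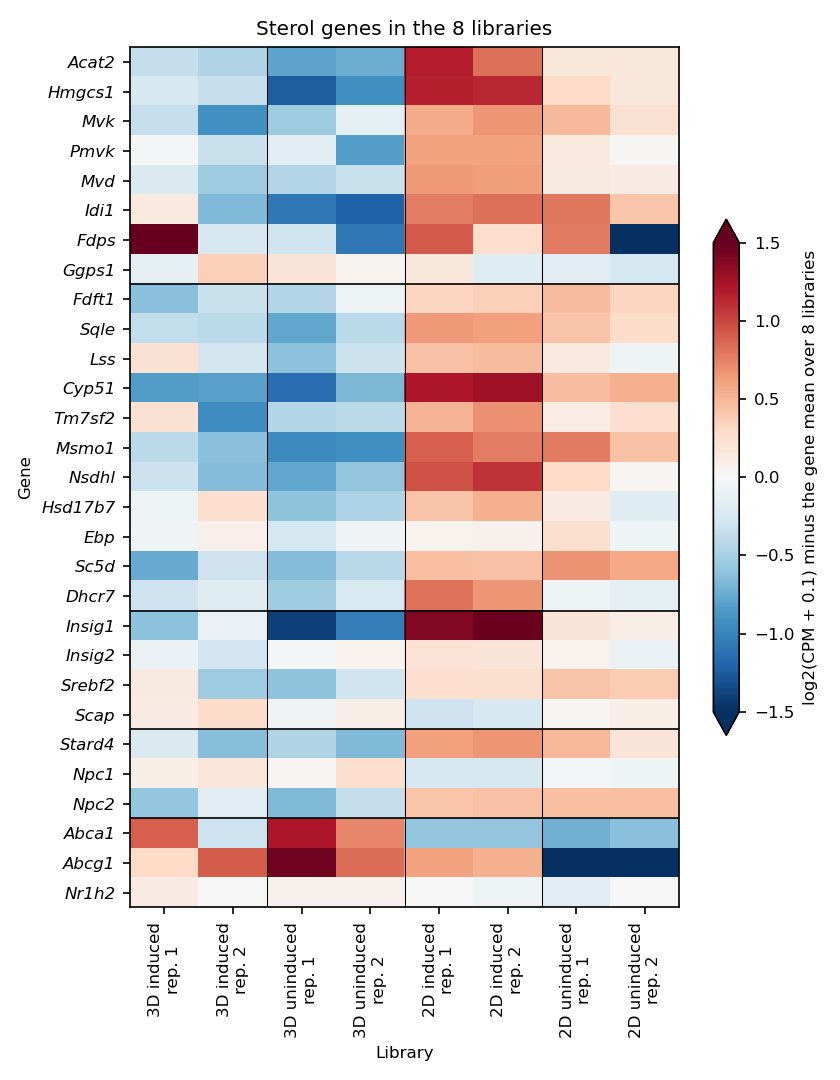
Level of the 29 sterol genes in each of the 8 libraries, as log2(CPM + 0.1) minus the mean of the gene over the libraries, with genes grouped by role from mevalonate enzymes at the top to export at the bottom. Most synthesis enzymes are blue in the 4 spheroid columns and red in the 2D induced columns, whereas Abca1 is red in 3 of the 4 spheroid columns; Fdps rests on few counts.

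Growth as spheroids went with lower levels of most cholesterol synthesis genes, whether or not the cells were induced. The 19 synthesis enzymes summed to 477 and 458 CPM in 3D induced and 358 and 411 CPM in 3D uninduced libraries. In flat cultures the same sum was 1010 and 967 CPM with induction and 736 and 665 CPM without. For 13 of the 19 enzymes, and 17 of all 29 members, every spheroid library lay below every flat one. Over all genes tested, 16.0% lay entirely lower and 19.2% entirely higher in the 4 spheroid libraries. For 3 members, Npc1, Abca1 and Nr1h2, every spheroid library lay above every flat one.

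In uninduced cells, 6 members fell and 2 rose in spheroids relative to flat culture. A call required both a 2-fold difference or more and, in the quasi-likelihood test of edgeR, an adjusted p below 0.05. Of all genes, 4.02% were called lower and 5.42% higher. The members that fell were Hmgcs1, Idi1, Cyp51, Msmo1, Sc5d and Insig1, and those that rose were Abca1 and Abcg1. By adjusted p alone 13 members were lower and 2 higher, against 10.2% and 10.9% of all genes. The median log2 fold change was -0.70 over the 19 synthesis enzymes, 18 of which were negative, and 0.03 over all genes.

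In induced cells, 11 members fell and 0 rose in spheroids by the same test, against 5.46% of all genes called lower and 6.94% called higher. Besides Hmgcs1, Idi1, Cyp51, Msmo1 and Insig1, which fell in both states, these were Acat2, Mvk, Mvd, Sqle, Nsdhl and Stard4. By adjusted p alone 17 members were lower and 2 higher, against 14% and 14.7% of all genes. The median over the 19 enzymes was -0.99, with 17 negative, and 0.03 over all genes. With the fit restricted to the 4 induced libraries, 6 members were called, all lower (Acat2, Hmgcs1, Cyp51, Msmo1, Nsdhl and Insig1). Of the 14538 genes in that fit, 420 were called lower and 405 higher. Mitochondrially encoded transcripts were higher in the same spheroid libraries, as given above, and the part of this in the sterol results was not tested. The macrophage list also differed by format: its 6 genes summed to 28.4 and 53.4 CPM in 3D induced and 65.3 and 62.1 CPM in 3D uninduced libraries, against 17.7 and 17.2 CPM in 2D induced and 23.4 and 17.5 CPM in 2D uninduced ones. Most of this sum was Cd14 and Csf1r, 4 of the 6 genes were tested, and the defining markers Ptprc and Adgre1 were at 0 counts in all 8 libraries.

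**Figure D2:**
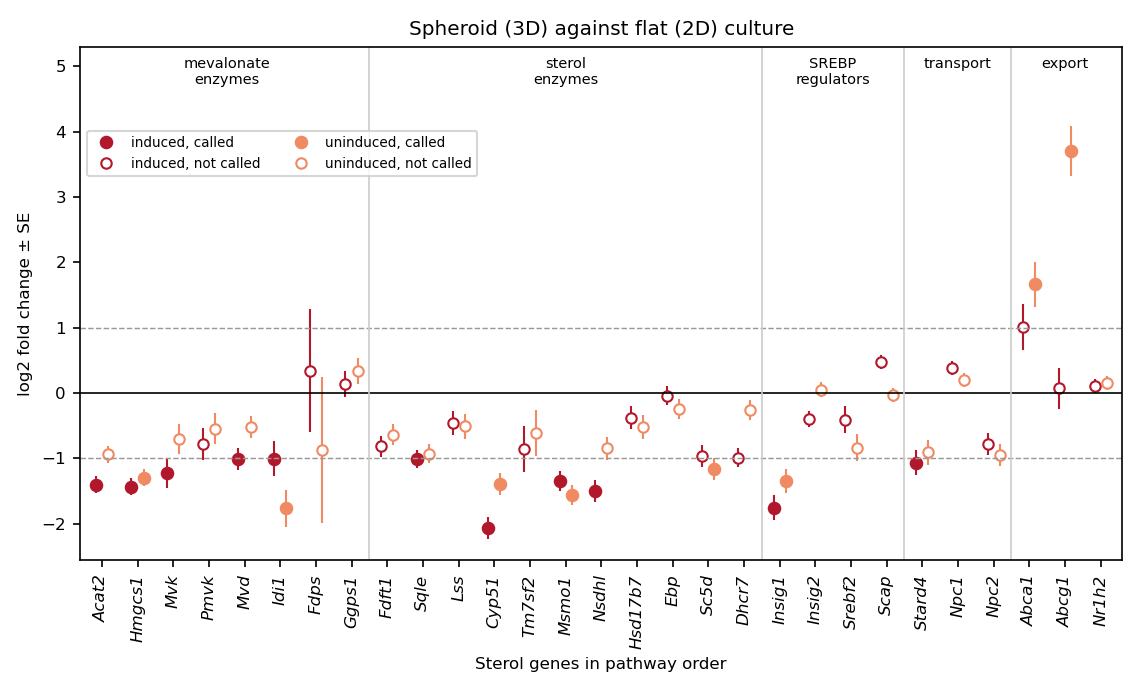
Log2 fold change of spheroid over flat culture for each member in pathway order, in induced (dark red) and uninduced cells (orange), with bars of 1 model standard error (2 libraries in each group). Filled points were called, and the dashed lines mark a 2-fold change. Points of the synthesis enzymes lie mostly below 0, and Abca1 and Abcg1 lie above it in uninduced cells.

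Among the enzymes of the mevalonate stretch, Hmgcs1 fell in both states. It encodes the cytosolic HMG-CoA synthase, an early enzyme on the way to mevalonate (ENSMUSG00000093930, chromosome 13 from 119690379 to 119708260, plus strand). It was at 78.5 and 73.1 CPM in 3D induced and 39.4 and 48.9 CPM in 3D uninduced libraries, against 208 and 204 CPM in 2D induced and 113 and 105 CPM in 2D uninduced ones. No spheroid library reached the lowest flat one. The fold change was -1.44 ± 0.13 log2 in induced cells, 2.72-fold lower (adjusted p = 6.29e-04), and -1.30 ± 0.13 in uninduced cells (adjusted p = 0.00116). Acat2, which joins acetyl-CoA units, was at 58.0 and 54.7 CPM in 3D induced and 169 and 132 CPM in 2D induced libraries, a fall of 1.41 ± 0.13 on the log2 scale (adjusted p = 7.73e-04). In uninduced cells it was under 2-fold lower (-0.94 ± 0.13, adjusted p = 0.00354). With the counts of Acat3 added, a check chosen after seeing the data, the values were -1.10 and -0.58, both still past the adjusted p.

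Isopentenyl diphosphate isomerase Idi1, which interconverts the isoprenoid units, was at 12.1 and 6.85 CPM in 3D induced and 5.16 and 4.65 CPM in 3D uninduced libraries. Flat libraries had 18.7 and 19.5 CPM with and 18.9 and 14.6 CPM without induction. The spheroid and flat libraries did not overlap, and Idi1 fell by 1.77 ± 0.29 log2 in uninduced cells (adjusted p = 0.00576) and by 1.01 ± 0.27 in induced cells (adjusted p = 0.0291). Mevalonate kinase Mvk (-1.22 ± 0.23, adjusted p = 0.00754) and the decarboxylase Mvd (-1.01 ± 0.17, adjusted p = 0.00495) fell in induced cells. In uninduced cells Mvk was at -0.70 and Mvd at -0.52, both with an adjusted p of 0.0635. Phosphomevalonate kinase Pmvk was at -0.78 (adjusted p = 0.0433) in induced cells. Ggps1, which leads isoprenoids towards protein prenylation and away from sterols, was at 0.13 and 0.33 with and without induction (adjusted p = 0.67 and 0.28). It did not share the lower levels of its neighbours: in induced cells it was at 19.4 and 27.4 CPM in 3D and 24.1 and 18.9 CPM in 2D libraries, which overlap.

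The call of Idi1 in uninduced cells was lost without 2D uninduced replicate 1 (adjusted p = 0.0544) and without 3D uninduced replicate 1 (0.0547) or 2 (0.057). In induced cells it was lost without any library except 3D induced replicate 1, with an adjusted p of up to 0.136, or a log2 value of -0.65 without 3D induced replicate 2. The call of Mvk was lost without 2D induced replicate 2 (adjusted p = 0.0614) and that of Mvk and Mvd without 3D induced replicate 2, where the folds were -0.97 and -0.86. Those of Hmgcs1 and Acat2 held without each library in turn.

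In the sterol stretch, lanosterol demethylase Cyp51 differed most in induced cells. This cytochrome removes the first methyl group from lanosterol (ENSMUSG00000001467, chromosome 5 from 4081145 to 4104746, minus strand). It was at 16.0 and 16.3 CPM in 3D induced and 12.9 and 18.0 CPM in 3D uninduced libraries, against 66.6 and 69.4 CPM in 2D induced and 39.5 and 41.5 CPM in 2D uninduced ones. Every flat library had more than 2 times the level of every spheroid library, and the spheroid groups overlapped. Cyp51 fell by 2.07 ± 0.17 log2 in induced cells, 4.20-fold lower (adjusted p = 5.01e-04), and by 1.39 ± 0.17 in uninduced cells (adjusted p = 0.00208).

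Msmo1, the methylsterol oxidase that acts after Cyp51 together with Nsdhl, lies on chromosome 8 from 64718139 to 64733792, minus strand (ENSMUSG00000031604). It was at 30.8 and 26.4 CPM in 3D induced and 20.9 and 21.5 CPM in 3D uninduced libraries. Flat libraries had 75.9 and 69.6 CPM with and 70.1 and 55.4 CPM without induction. It fell in both states, by 1.35 ± 0.15 log2 in induced cells (adjusted p = 0.00127) and by 1.56 ± 0.15 in uninduced cells (adjusted p = 0.00113). Nsdhl, the decarboxylating dehydrogenase of the same complex, was at 18.9 and 15.0 CPM in 3D induced and 45.7 and 50.1 CPM in 2D induced libraries and fell by 1.50 ± 0.17 (adjusted p = 0.00127). In uninduced cells Nsdhl was at 13.7 and 15.6 CPM in 3D and 28.8 and 24.0 CPM in 2D libraries, -0.85 ± 0.17 (adjusted p = 0.0126). The lathosterol desaturase Sc5d fell by 1.17 ± 0.17 in uninduced cells (adjusted p = 0.00367) and was at -0.97 (adjusted p = 0.00577) in induced cells. Calls of Cyp51, Msmo1, Nsdhl and Sc5d held without each library in turn and in each other alternative fit.

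Squalene epoxidase Sqle, a rate-limiting enzyme, was at 40.8 and 40.1 CPM in 3D induced and 82.3 and 81.0 CPM in 2D induced libraries. The groups were clearly apart, at the edge of the 2-fold threshold: -1.01 ± 0.14 (adjusted p = 0.00277), and just short of 2-fold without 3D induced replicate 2, where the call was lost. In uninduced cells it was at 30.8 and 40.1 CPM in 3D and 71.2 and 63.8 CPM in 2D libraries, -0.93 ± 0.14 (adjusted p = 0.00487). Squalene synthase Fdft1 was at -0.82 with and -0.64 without induction (adjusted p = 0.00971 and 0.0287). Dhcr7, the last reductase of one branch, was at -0.99 ± 0.15 (adjusted p = 0.00347) in induced cells and at -0.26 (adjusted p = 0.257) in uninduced cells. It lay so near the 2-fold limit that DESeq2 called it in induced cells (adjusted p = 1.47e-05). Lss, Tm7sf2, Hsd17b7 and Ebp passed the adjusted p in neither state, with log2 values from -0.86 to -0.04. Tm7sf2, at -0.86 in induced cells, was at -1.55 without 3D induced replicate 1 and at -0.38 without replicate 2. Ebp, the sterol isomerase, stayed within 33.5 to 36.7 CPM in 3D induced and 35.9 to 36.3 CPM in 2D induced libraries.

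Of the regulators, Insig1 fell in both states. It encodes the sterol-dependent anchor of Scap and is itself a target of SREBP-2 (ENSMUSG00000045294, chromosome 5 from 28071363 to 28078662, plus strand). It was at 31.7 and 45.4 CPM in 3D induced and 18.4 and 23.6 CPM in 3D uninduced libraries, against 127 and 135 CPM in 2D induced and 55.7 and 51.9 CPM in 2D uninduced ones. All 4 groups were apart from each other. Insig1 fell by 1.76 ± 0.19 log2 in induced cells, 3.40-fold lower (adjusted p = 0.00113), and by 1.35 ± 0.19 in uninduced cells (adjusted p = 0.00361), and both calls held without each library in turn.

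The other regulators differed less between formats. Srebf2 was at 104 and 65.4 CPM in 3D induced and 113 and 112 CPM in 2D induced libraries (-0.41, adjusted p = 0.172). In uninduced cells it was at 62.3 and 77.1 CPM in 3D and 127 and 123 CPM in 2D libraries (-0.84 ± 0.21, adjusted p = 0.0272). Every spheroid library thus lay below every flat one for Srebf2, with wide spread among the spheroids. Insig2, the second Insig gene, was at -0.40 (adjusted p = 0.0382) and Scap at 0.47 (adjusted p = 0.016) in induced cells. In uninduced cells they were at 0.05 and -0.03.

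Carriers of sterol between membranes were mixed. Npc2, which binds cholesterol released in the lysosome, was at 470 and 626 CPM in 3D induced and 445 and 549 CPM in 3D uninduced libraries, against 935 and 948 CPM in 2D induced and 962 and 956 CPM in 2D uninduced ones. It was under 2-fold lower in both states, -0.78 ± 0.17 with and -0.95 ± 0.17 without induction (adjusted p = 0.0125 and 0.00803). Its membrane partner Npc1 was at 0.38 with induction (adjusted p = 0.0391) and 0.20 without (adjusted p = 0.252). Stard4, a cytosolic sterol carrier, fell by 1.07 ± 0.19 in induced cells (adjusted p = 0.00666), with 14.8 and 11.0 CPM in 3D and 26.4 and 27.4 CPM in 2D libraries. That call was lost without 2D induced replicate 2 (adjusted p = 0.0581) and without 3D induced replicate 2 (-0.87). In uninduced cells Stard4 was at -0.91 (adjusted p = 0.0157). Between spheroid and flat culture, 15 member values over both states of induction passed the adjusted p below 2-fold. Of these, the values of Acat2 in uninduced and Dhcr7 in induced cells stayed past it without each library in turn.

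Of the 3 export genes, Abca1 and Abcg1 rose in uninduced spheroids, and Nr1h2 did not pass the test. Abca1, which loads cholesterol onto apolipoprotein A-I, lies on chromosome 4 from 53030787 to 53159895, minus strand (ENSMUSG00000015243). It was at 295 and 127 CPM in 3D induced and 367 and 262 CPM in 3D uninduced libraries, against 105 and 105 CPM in 2D induced and 96.1 and 102 CPM in 2D uninduced ones. Flat libraries were nearly level and all 4 spheroid libraries lay above them. Abca1 rose by 1.66 ± 0.35 log2 in uninduced cells (adjusted p = 0.0159), and was at 1.01 ± 0.35 in induced cells (adjusted p = 0.0651). The value in induced cells rests on the 3D induced pair: it was 0.28 without replicate 1 and 1.49 without replicate 2. The call in uninduced cells was lost without each of the 4 uninduced libraries and with no low-count filter (adjusted p = 0.0948). The 3D induced library with the lower Abca1, replicate 2, is the one with 1.13% of counts in Gm26917 and Gm42418, and the part of this in the result was not tested.

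Abcg1, which passes cholesterol to high-density lipoprotein, was low in all groups (ENSMUSG00000024030, chromosome 17 from 31057675 to 31117988, plus strand). Induced spheroids had 57 and 102 counts (3.86 and 5.97 CPM) and uninduced spheroids 118 and 78 counts (8.70 and 5.67 CPM). Induced flat cultures had 54 and 65 counts (4.82 and 4.55 CPM) and uninduced flat cultures 10 and 8 counts (0.498 and 0.603 CPM). The 2D uninduced libraries stood apart from all others. Abcg1 rose by 3.70 ± 0.38 log2 in uninduced spheroids relative to flat cells (adjusted p = 0.0014), and was at 0.07 (adjusted p = 0.881) in induced cells. The liver X receptor beta, Nr1h2, was at 61.9 and 57.2 CPM in 3D induced and 59.6 and 59.5 CPM in 3D uninduced libraries, against 56.6 and 53.8 CPM in 2D induced and 51.2 and 56.5 CPM in 2D uninduced ones, with log2 values of 0.11 and 0.15 with and without induction (adjusted p = 0.485 and 0.38).

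**Figure D3:**
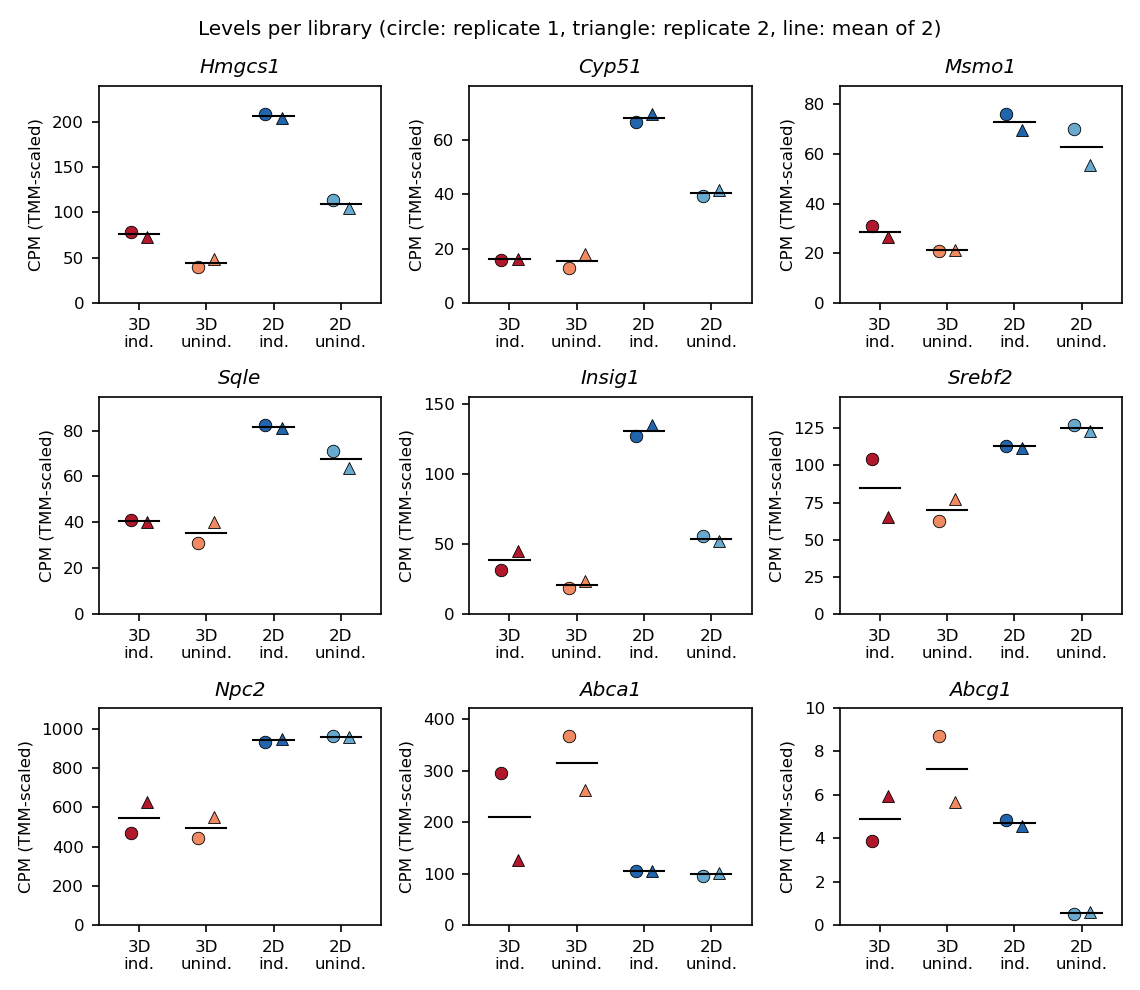
CPM of 9 members in each library, by group, with circles for replicate 1, triangles for replicate 2 and a line at the mean of 2, and each vertical axis starting at 0. Synthesis genes and Insig1 are lowest in the spheroid groups and highest in 2D induced cultures, Abca1 is higher in spheroids, and Abcg1 is near 0 in 2D uninduced cultures alone.

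With induction of flat cells, 16 of the 19 synthesis enzymes had a positive log2 value, but 0 were called and 5 passed the adjusted p below 2-fold. Of 29 members, 2 rose and 0 fell, Insig1 and Abcg1, against 3.17% of all genes called higher and 1.34% lower. By adjusted p alone 7 members were higher, against 5.91% of all genes, and 0 lower, against 2.97%: Acat2, Hmgcs1, Cyp51, Nsdhl and Dhcr7 joined the called pair. Their log2 values were 0.84 ± 0.13 for Acat2, 0.92 ± 0.13 for Hmgcs1, 0.75 ± 0.16 for Cyp51, 0.86 ± 0.17 for Nsdhl and 0.85 ± 0.15 for Dhcr7 (adjusted p = 0.00449 to 0.0278). The other 22 lay between -0.33 and 0.59 (adjusted p = 0.109 to 0.943). The median over the 19 enzymes was 0.42, and 0.00 over all genes. These adjusted p-values use a spread shared with the more variable 3D induced group. With only the flat groups fitted, 20 members had an unadjusted p under 0.05 in either direction, against 10 in the fit reported. In both fits 2 were called. Over all genes, 7281 of 14251 and 3583 of 15255 were under that p, in the same order.

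Insig1 rose by 1.29 ± 0.19 log2 with induction in 2D (adjusted p = 0.00627), from the values given above, with both induced libraries higher. The call was lost without any 1 of the 4 flat libraries (adjusted p = 0.0642 to 0.0996), the log2 value staying between 1.19 and 1.29. Abcg1 rose by 3.09 ± 0.39 log2, 8.50-fold (adjusted p = 0.00328), and the call was lost without 2D uninduced replicate 1 (adjusted p = 0.0675). Abca1 was at 0.08 (adjusted p = 0.919), so the 2 transporters did not move together here. None of the 5 enzymes past the adjusted p stayed past it without each library in turn.

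Induction of spheroids called 0 members by edgeR, against 0.583% of all genes called higher and 0.328% lower. At an unadjusted p under 0.05 there were 7 members by edgeR, 5 by DESeq2 and 2 by limma-voom with group weights, with 0 calls by each. Over all 15255 genes, 1896, 1597 and 1003 were under that p, in the same order. Hmgcs1 alone passed the adjusted p, at 0.78 ± 0.13 log2 (adjusted p = 0.0332), against 0.859% of all genes higher and 0.505% lower by that rule. It did not stay past it without each library in turn. Insig1 was next, at 0.88 ± 0.19 (adjusted p = 0.0855), and passed in DESeq2 (adjusted p = 0.00627). Both were higher in each induced library than in each uninduced one. Single libraries moved these results: without 3D induced replicate 1, the log2 value of Insig1 was 1.11 and that of Abca1 -1.31. Without 3D induced replicate 2, Idi1 was at 1.30. Each of these fits leaves 1 library in the group, so its spread comes from the other groups and no call is given. With all libraries Abca1 was at -0.58 (adjusted p = 0.577) and Idi1 at 0.94 (adjusted p = 0.199). The median over the 19 enzymes was 0.19, and 0.04 over all genes.

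**Figure D4:**
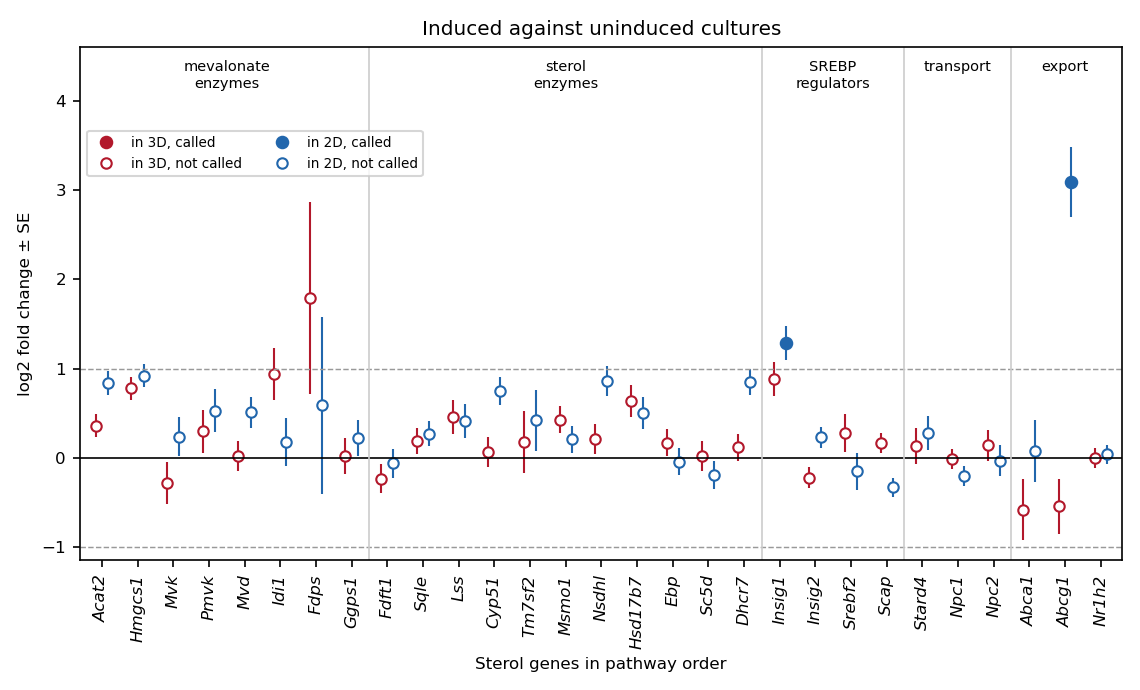
Log2 fold change of induced over uninduced cultures for each member in pathway order, in spheroids (red) and flat cultures (blue), with bars of 1 model standard error (2 libraries in each group). Filled points were called: Insig1 and Abcg1 in flat cultures, and none of the 29 in spheroids.

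The difference between the 2 inductions was tested as the interaction. Abcg1 was called, at -3.63 ± 0.50 log2 (adjusted p = 0.0329), against 0.341% of all genes called lower and 0.0393% higher. Abcg1 rose with induction in 2D, as given above, and was at -0.54 (adjusted p = 0.552) with induction in 3D. The call was lost with the replicate number as a block (adjusted p = 0.0675) and without any flat or any 3D uninduced library (adjusted p = 0.124 to 0.331), although the log2 value stayed between -3.98 and -3.28 over all alternatives. The other 28 members lay between -0.73 and 1.21 (adjusted p = 0.361 to 0.99), Dhcr7 being the lowest. Without 3D induced replicate 1 Abca1 was at -1.39, and without replicate 2 Idi1 was at 1.13. With all 8 libraries, a difference in response to induction between formats was not detectable for any of the 19 synthesis enzymes.

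A second list held 36 other genes of sterol handling, of which 35 were in the file and 31 were tested. In spheroids against flat cells, the median over the 31 was -0.03 with and -0.06 without induction, against 0.03 over all genes in both. The very-low-density lipoprotein receptor Vldlr fell in both states. It was at 223 and 127 CPM in 3D induced and 108 and 137 CPM in 3D uninduced libraries, against 378 and 395 CPM in 2D induced and 353 and 362 CPM in 2D uninduced ones (-1.14 ± 0.25 with and -1.54 ± 0.25 without induction, adjusted p = 0.0129 and 0.00572). Apoe, a lipoprotein component, fell by 1.45 ± 0.39 with induction (adjusted p = 0.0282). The calls of both depended on single libraries, with an adjusted p of up to 0.0791 for Vldlr and 0.12 for Apoe without 1 library. Apoe was at -2.20 without 3D induced replicate 1 and -0.96 without replicate 2. With only the 4 induced libraries fitted, neither was called with induction (adjusted p = 0.0734 for Vldlr and 0.0907 for Apoe). Apoe also lost its call with limma-voom group weights (adjusted p = 0.113) and with no low-count filter (adjusted p = 0.136).

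With induction in 2D, 2 of the 31 genes of the second list rose and 1 fell, against 3.17% of all genes called higher and 1.34% lower. The median was 0.13, against 0.00 over all genes. Nr1h3, the liver X receptor alpha, was at 30.5 and 30.0 CPM in 2D induced and 6.97 and 7.31 CPM in 2D uninduced libraries, a rise of 2.08 ± 0.14 (adjusted p = 2.27e-04). It also rose with induction in 3D (1.10 ± 0.14, adjusted p = 0.0144) and in uninduced spheroids relative to flat cells (1.11 ± 0.14, adjusted p = 0.00273). The call in 3D was lost without any flat or any 3D uninduced library, and with only the 3D groups fitted (adjusted p = 0.33). Like Abcg1, Nr1h3 was lowest in 2D uninduced cultures. Scarb1, a receptor that takes up cholesterol from high-density lipoprotein, rose by 1.89 ± 0.15 (adjusted p = 4.37e-04), with 72.5 and 66.9 CPM in 2D induced and 19.3 and 18.3 CPM in 2D uninduced libraries. Nceh1, a cholesteryl ester hydrolase, fell by 1.59 ± 0.14 (adjusted p = 6.36e-04), with 10.2 and 10.0 CPM in 2D induced and 30.5 and 30.4 CPM in 2D uninduced libraries.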

How the data were processed

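RNA from 8 samples of 3T3-L1 cells was sequenced from directional libraries, per the labels' protocols. The authors deposited raw counts for each Ensembl gene, unnormalized, as whole numbers with unequal totals show. The submitters' processing notes name the tools HISAT2 2.1.0, featureCounts 1.6.3, Trimmomatic 0.38 and FastQC 0.11.7 and the build mm10. Settings, strandedness of counting and annotation release: not given in the sources used here. Columns were matched to samples through the sample descriptions, and the title numbers name the replicates.

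Symbols and positions are from GENCODE vM21 (GRCm38), which named 49326 of 49585 genes. Genes without a symbol held 0.0285% of counts. Genes were kept by filterByExpr (minimum count 10, by group). The counts were fitted with R 4.3.3 and edgeR 4.0.16 (TMM, robust quasi-likelihood, 1 mean per group, 8 libraries, 4 residual degrees of freedom). All p-values are two-sided. Adjusted p-values of the fit reported are taken over the 15255 genes (Benjamini-Hochberg), and those of each alternative over the genes of that fit. Calls need an adjusted p under 0.05 and at least 2-fold, as in the series description. Values after ± are standard errors of log2 fold changes (n = 2 per group). The fit gives all groups 1 spread per gene, although replicates spread more in 3D induced cultures (biological coefficient of variation 0.325) than in the others (0.0469 to 0.110). Leaving out a library leaves 1 in its group, so the spread then comes from the other groups alone. Adjusted p-values and calls without a 3D induced library therefore do not measure the spread of that group. The method was tested on simulated data.

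Members and lists were chosen with earlier results of these data known. Log2 values and adjusted p are given for members called in any comparison and for the 2 with the smallest adjusted p in each. Their CPM per library in the groups compared is also given, except for Mvk, Mvd, Sc5d and Dhcr7. Members passing the adjusted p alone were added afterwards. In the second list, values are given for called genes, of which some are not reported here. Near-identical copies were sought by aligning transcripts (at least 90% identity over 300 bases). Promoter sequences are from RefSeq (GRCm38.p6). Alternatives were DESeq2 1.42.0, its size factors in edgeR, no low-count filter, limma-voom group weights (limma 3.58.1), a replicate block, only the groups compared, adjusted p alone, added copies and leaving out each library. Precision here rests on 2 libraries per group, with 1 spread per gene shared by the 4 groups. For Abcg1 in 2D uninduced cultures (10 and 8 counts) and for Fdps (90 counts in all) it is also limited by counting error.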

Additional observations from a re-analysis of the deposited data

Results flagged for a closer look

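Abcg1 differed between the inductions in 3D and in 2D by -3.63 ± 0.50 log2 (interaction, edgeR quasi-likelihood test, adjusted p = 0.0329). It was at 3.86 and 5.97 CPM in 3D induced and 8.70 and 5.67 CPM in 3D uninduced libraries, and at 4.82 and 4.55 CPM in 2D induced and 0.498 and 0.603 CPM in 2D uninduced ones. The 2D uninduced values rest on 10 and 8 counts. The adjusted p over the alternatives ran from 9.01e-09 to 0.331.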

How the results depend on the processing

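Across alternatives, 0 of 55 log2 values changed direction: those of members past the adjusted p or among the 2 with the smallest in a comparison, and of called genes in the second list. Of all 145 member values, 35 changed sign in at least 1 alternative, each with an adjusted p of 0.62 to 0.99 in the fit reported. Of the 22 member calls, 12 held in every alternative, all of them between spheroid and flat culture: Hmgcs1, Cyp51, Msmo1 and Insig1 in both states, Acat2 and Nsdhl with induction, Sc5d and Abcg1 without. The counts of called members were 11 (3D against 2D, induced), 8 (uninduced), 2 (induction in 2D), 0 (induction in 3D) and 1 (interaction). By adjusted p alone they were 19, 15, 7 and 1 in the first 4. With only the groups compared the first was 6. Leaving out single libraries gave 9 to 12, 6 to 8, 0 to 2, 0 to 2 and 0 to 2 in the same order. Replicate differences correlated across genes at 0.206 between the 3D induced and 3D uninduced groups, and at -0.00619 to 0.0265 in the other pairs of groups. These values do not settle whether the replicate numbers of the titles pair the samples, and the fit reported does not pair them. The replicate block left 0 members called in the interaction, against 1 without it, and 1825, 1382, 639, 114 and 39 genes over all, each within 1.5 times of the fit without it. DESeq2 size factors moved the median of all genes by 0.021 log2 or less.

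Over all genes, 1892, 1440, 689, 139 and 58 were called. By adjusted p alone the first 3 were 4379, 3215 and 1354. Only the groups compared gave 825 for the first, 1213 for induction in 2D and 0 for induction in 3D (edgeR, 885 genes at an unadjusted p under 0.05). limma-voom group weights gave 1348, 88 and 107 for the last 3. DESeq2 gave 242 and 163 and no filter 336 and 209 for the last 2. Leaving out single libraries gave 871 to 3025, 552 to 2170, 225 to 1169, 24 to 1225 and 1 to 686. With copies added, a check chosen after seeing the data, Fdps turned from 0.34 to -1.28 between formats in induced cells and was called (adjusted p = 0.0296), and the members called were 12 for that comparison. With 2 libraries per group, changes below 2-fold are at the limit of what this design resolves.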
